A study of Mus musculus with 16 samples.

Results

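Transitional B cells, the youngest B cells of the spleen, were examined in the spleen of naive mice. They were selected on measured unique molecular identifiers (UMIs, each counting 1 captured RNA molecule), with at least 2 UMIs summed over Cd79a and Cd79b, which encode the signalling chains of the B cell receptor, at least 1 UMI of Cd93, which encodes the surface protein AA4.1 of immature B cells, and no UMI of Cd3e, Cd3d, Cd3g, Lyz2, Siglech, or Jchain, which mark T cells, myeloid cells, plasmacytoid dendritic cells, and plasma cells. This rule, which used the measured values themselves, took 721 of 47060 CD45+ cells (1.53%). These were 721 of the 27964 B cells within the same limits (2.58%, exact 95% CI 2.40% to 2.77%, for counting error in pooled cells only). These are called Cd93+ B cells below, and the 27243 others, without a Cd93 UMI, are called Cd93- B cells.

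The study followed mouse kidney transplants that were accepted or rejected, and the naive spleen was its tissue without a transplant. The spleen came from wild-type C57BL/6J mice, its viable CD45+ leukocytes were sorted by flow cytometry after lysis of red blood cells, and droplet-based RNA-seq of transcript 3′ ends (10x Genomics) was performed. It is 1 sample whose cell barcodes carry the tags of 5 libraries. The study's methods treat mice as separate samples in general, but the sources used here do not tie the 5 tags to mice. The p-values measure how the difference between cell groups within a library varies over the 5 libraries, a spread that may be technical.

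B cells leave the bone marrow as immature cells and finish their maturation in the spleen as transitional cells, which carry CD93 and much CD24 (Cd24a). Early transitional cells (T1) have surface IgM but little CD23 (Fcer2a), and later stages (T2 and T3) gain CD23, IgD, and CD21 (Cr2) before they become follicular or marginal zone B cells. Many self-reactive clones are removed or silenced at these stages, and the survival of later stages depends on the cytokine BAFF.

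The 5 libraries held 30054753 to 37016197 UMIs each and 108, 179, 143, 157, and 134 Cd93+ B cells, whose summed UMIs ranged from 343853 to 698524. Cd93+ B cells made up 1.77%, 3.44%, 2.63%, 3.01%, and 2.23% of B cells in libraries 1 to 5, a mean of 2.62% ± 0.652 (SD, n = 5 libraries). Library 1 had the smallest share and library 2 the largest.

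**Figure D1:**
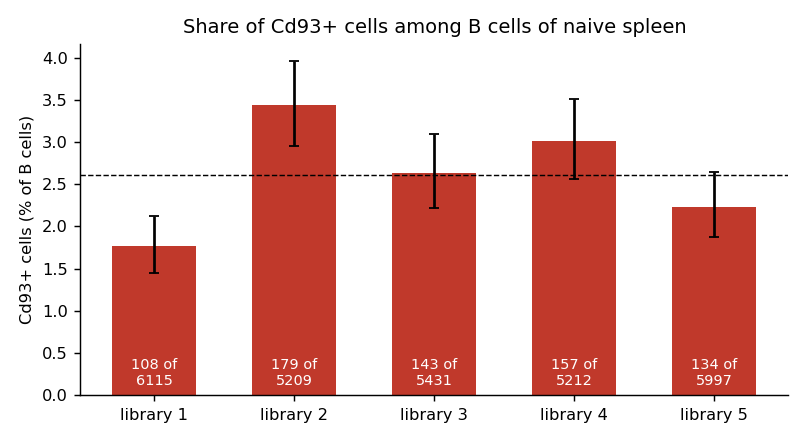
Share of B cells with at least 1 Cd93 UMI, in percent, in each of the 5 libraries of naive spleen. Bars are the shares, whiskers are exact 95% intervals for counting error only, and the dashed line is the mean of 2.62%; the shares run from 1.77% to 3.44%.

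Cd93 was sparse, and the share depends on its threshold. A single Cd93 UMI placed 645 of the 721 cells, 69 cells had 2, 7 cells had 3 or more, and the highest count was 7. T cells, which should lack the gene, were taken as cells with a UMI of Cd3e, Cd3d, or Cd3g and none of Cd79a or Cd79b. Lyz2, Siglech, and Jchain were not excluded there, and other cells may be among them. A UMI of the myeloid marker Fcer1g was in 5.34% of these T cells and in 1.62% of Cd93- B cells. Of these T cells, 68 of 11243 (0.605%) had a Cd93 UMI at a median of 3802 UMIs per cell, against 2.58% of B cells at a median of 2663. The share was 0.272% of B cells with at least 2 Cd93 UMIs, and 0.992% when all cells were thinned to 1000 UMIs before the rule was applied. Cells with other markers had been left out by the rule, 3581 of the 31545 cells with 2 Cd79a and Cd79b UMIs, among them 167 with a Cd93 UMI. At the edge of the Cd79a and Cd79b threshold stood 4 Cd93+ cells with exactly 2 such UMIs, inside, and 3 with exactly 1, outside. The 4 cells inside together had 6 UMIs of Vpreb3 and 42 of Ighm, and the 3 outside had 0 and 2.

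Cells with more UMIs are more likely to show 1 of Cd93. The median was 2933 ± 362 UMIs per cell in Cd93+ and 2629 ± 302 in Cd93- B cells (SD, n = 5), higher in 5 of 5 libraries. With 5 libraries, the exact sign permutation test (two-sided) cannot give a p below 0.0625, which this difference reached. Among the Cd93+ B cells, 83 lay above the 95th percentile of UMIs of the Cd93- B cells of their library. Across the libraries, 238 barcodes occurred in at least 2 of them, and 10 Cd93+ B cells carried such a barcode.

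The other markers of the cell type were higher in Cd93+ B cells. Vpreb3, which encodes a protein that binds immunoglobulin chains during receptor assembly, stood at 497, 599, 413, 488, and 547 CPM in Cd93+ B cells of libraries 1 to 5 and at 217, 293, 225, 248, and 263 in Cd93- B cells (CPM, counts per 1000000, are a gene's UMIs scaled to 1000000 UMIs of the cell group in that library). The lowest Cd93+ value lay above the highest Cd93- value, and the log2 difference was 1.02 ± 0.05 (SE; edgeR quasi-likelihood test with the library as a block, adjusted p = 3.22e-49). Cd24a was at 390, 559, 438, 444, and 448 CPM against 256, 308, 275, 276, and 271, again without overlap, with a log2 difference of 0.72 ± 0.05 (adjusted p = 1.48e-29 by edgeR). Both levels followed the Cd93 count in cells pooled over all libraries. Vpreb3 was at 249 CPM in cells with 0 Cd93 UMIs, 484 with 1, and 704 with 2 or more, and Cd24a was at 277, 450, and 567. The last group held 76 cells. In library 1 Vpreb3 went the other way between the last groups, with 503 CPM at 1 Cd93 UMI and 450 at 2 or more.

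Shares of cells were compared after each cell had been thinned to 1000 UMIs. A Vpreb3 UMI was found in 35.6% of Cd93+ and 21.0% of Cd93- B cells, against 0.196% of T cells, and a Cd24a UMI in 33.7%, 21.4%, and 0.454%. A UMI of Ms4a1, encoding the general B cell marker CD20, was found in 76.9% of Cd93+ and 71.2% of Cd93- B cells. Of markers of other cells, Trac, of the T cell receptor, was seen in 0.278% of Cd93+ and 0.203% of Cd93- B cells, and Csf1r, encoding a receptor of monocytes and macrophages, in 0.278% and 0.199%. These shares rest on 2 Cd93+ B cells each and on the random draw of UMIs made at each depth. In the draw of 500 UMIs per cell Trac was in 0.555% (exact 95% CI 0.151% to 1.41%) and 0.0954% (0.0624% to 0.140%) and Csf1r in 0.416% and 0.125%. Fewer UMIs should lower a share, so the higher Cd93+ values at 500 UMIs show how unsteady the draws are. Without thinning Trac was in 0.971% and 0.562% and Csf1r in 0.693% and 0.488%. CD93 is also found on endothelial cells and early progenitors. Of 8 markers of these cells, Cdh5, Kdr, Egfl7, Cd34, and Mpo were at 0 UMIs in the 721 cells and Kit had 3, whereas Pecam1 had 486 UMIs in 306 cells (42.4%, against 36.3% of Cd93- B cells and 25.9% of T cells) and Ly6a had 529 in 246 cells (34.1%, against 46.1% and 22.5%).

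All genes were then compared between Cd93+ and Cd93- B cells. Of 10909 genes tested, 986 (9.04%) passed an adjusted p of 0.05 in edgeR, 709 higher in Cd93+ B cells (6.5%) and 277 lower (2.54%). With TMM factors in place of library totals the split was 455 higher and 424 lower, and the median log2 difference of all genes was 0.06 with library totals and −0.01 with TMM factors. The 22 lists of genes, chosen with earlier results of these data known, are described against these shares and this median.

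**Figure D2:**
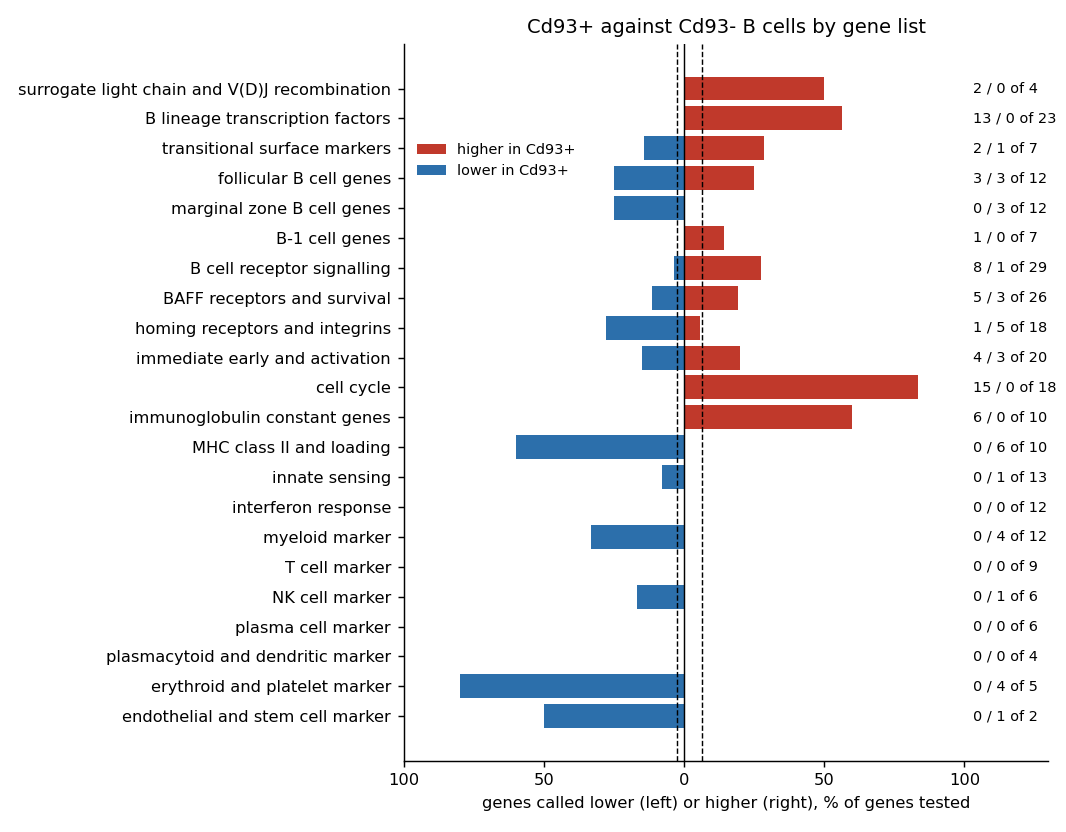
Percent of the tested genes of each of the 22 lists that were higher (right) or lower (left) in Cd93+ than in Cd93- B cells at an edgeR adjusted p under 0.05. The dashed lines are the shares over all 10909 genes tested, 6.5% and 2.54%, and the 2 of 4 in the first list include Rag1, which the filter could keep only where it is high; the cell cycle list reaches furthest to the right (15 of 18) and the erythroid and platelet list furthest to the left (4 of 5).

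Few genes of receptor assembly reached the test. In the list named for the surrogate light chain and V(D)J recombination, 3 genes could pass the filter on low counts in either group. Of these 1 was higher, Vpreb3, already given above as a marker of the cell type, and Xrcc6 and Lig4 did not pass. Rag1, a subunit of the recombinase that cuts immunoglobulin genes, had 15 UMIs in Cd93+ B cells (5.76 ± 2.99 CPM, SD, n = 5) and 25 in all Cd93- B cells (0.291 ± 0.133), higher in 5 of 5 libraries. It reached the filter level of 1.20 CPM in 5 libraries of Cd93+ and 0 of Cd93- B cells, so it could be kept only by being high in the Cd93+ cells, and its values are a description without a test. A Rag1 UMI was present in 9 of 721 Cd93+ B cells, in 15 of 27243 Cd93- B cells, and in 0 of 11243 T cells, which allows a share of cells with a UMI of up to 0.0267% for counting error and sets no limit on cells that express a gene so sparsely captured. Vpreb1 was not tested for its low counts, and it was seen in 0.555% of Cd93+ B cells, 0.195% of Cd93- B cells, and 0.489% of T cells, so that its share in Cd93+ B cells lay within counting error of the background in T cells (exact 95% CI 0.151% to 1.41% against 0.369% to 0.636%, at medians of 3001 and 3802 UMIs per cell). At least 1 UMI of Rag1, Rag2, Vpreb1, or Dntt was present in 13 Cd93+ B cells (1.80%, exact 95% CI 0.963% to 3.06%), from all 5 libraries, and in 0.250% of Cd93- B cells (0.194% to 0.316%), and none of the 13 was among the cycling cells described below.

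Of 23 tested transcription factors of the B lineage, 13 were higher and 0 lower, with a median log2 difference of 0.20. Myb, a factor of lymphoid progenitors, was at 45.8 ± 12.7 against 11.02 ± 1.31 CPM (log2 difference 2.02), and Sox4, needed for early B cell development, at 55.7 ± 17.1 against 20.01 ± 2.29 (1.41). Both were higher in 5 of 5 libraries without overlap, but Sox4 was not called in the smaller set of cells with at least 2 Cd93 UMIs (0.60, adjusted p = 0.827 by edgeR). Zeb2 was at 268 ± 15.8 against 138 ± 3.72 (0.96), Spib at 312 ± 54.6 against 207 ± 13.0 (0.61), and Lef1 at 17.2 ± 5.93 against 8.52 ± 0.354 (0.98). Smaller differences were found for Bach2 (0.50), Tcf3 (0.40), Foxo1 (0.28), Hhex (0.28), and Pax5, which holds the B cell identity (0.20). Under TMM factors 9 of the list were higher and 1 lower, and with DESeq2 7 were higher, and Pax5 was not called by either. Lef1 was not called without library 3 (log2 difference 0.79), nor Tcf3 without library 4 (0.28), Hhex without library 5, Spi1 without library 2 or 5, or Ikzf3 without library 2, 3, or 4.

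**Figure D3:**
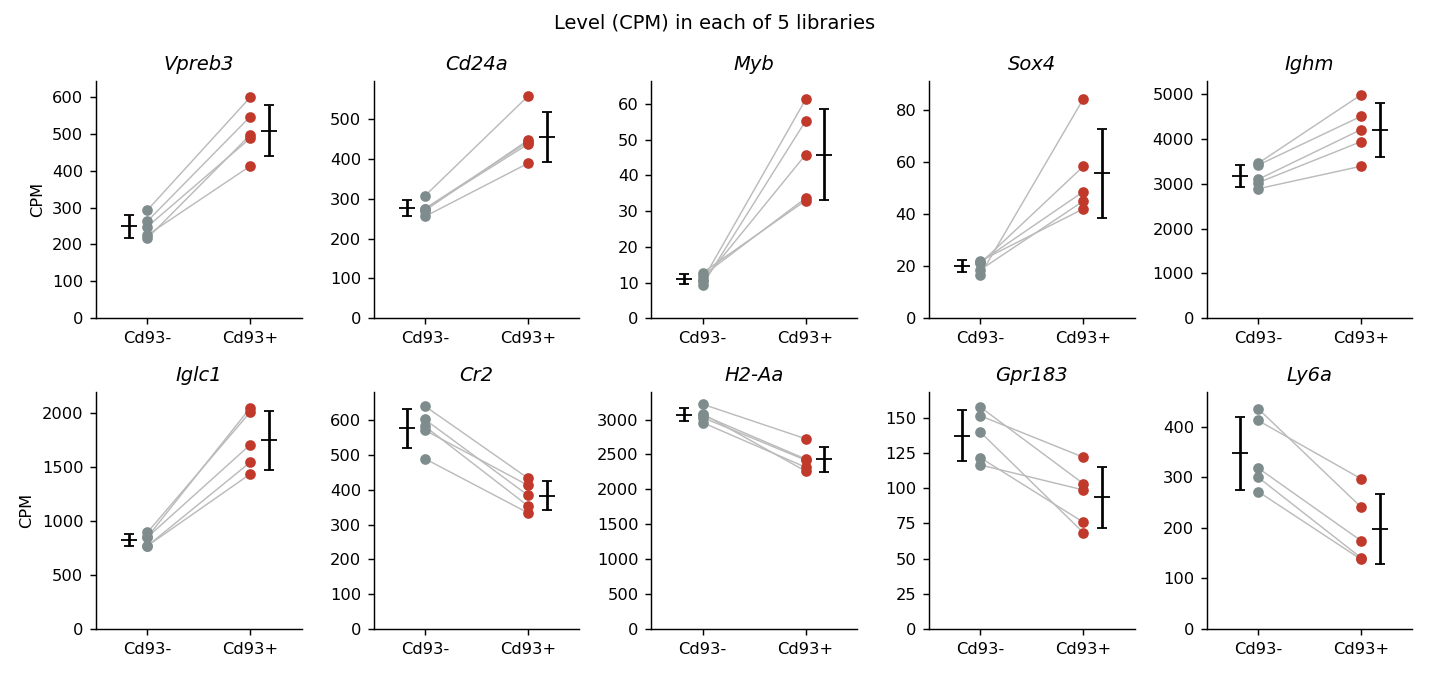
Levels of 10 genes in CPM (axes from 0) in Cd93- and Cd93+ B cells, with a point for each library, a line joining the points of each of the 5 libraries, and the mean with its SD beside them. Vpreb3, Cd24a, Myb, Sox4, Ighm, and Iglc1 are higher and Cr2, H2-Aa, Gpr183, and Ly6a lower in Cd93+ B cells of all 5 libraries.

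Of 10 tested constant genes of immunoglobulins, 6 were higher and 0 lower, with a median log2 difference of 0.32. Ighg2b, a heavy chain of IgG, was among the 6 and was not called without library 1, 2, or 3. Ighm, the heavy chain of IgM, was at 4202 ± 598 against 3173 ± 249 CPM (0.40, 5 of 5 libraries), whereas Ighd, the heavy chain of IgD, was at 885 ± 89.3 against 945 ± 108 and was not called (−0.09, adjusted p = 0.149 by edgeR; it passed with TMM factors at −0.16 and with DESeq2 at −0.15). The ratio of Ighm to Ighd UMIs was 4.40, 5.08, 4.62, 4.33, and 5.30 in Cd93+ B cells and 3.62, 3.34, 3.42, 2.92, and 3.59 in Cd93- B cells of libraries 1 to 5. These ratios did not overlap (4.74 ± 0.428 against 3.38 ± 0.283, exact sign permutation p = 0.0625, the smallest possible).

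Lambda light chain RNA had a larger part in Cd93+ than in Cd93- B cells. Iglc1 was at 1437, 2051, 1709, 2011, and 1546 CPM against 769.3 to 895 in Cd93- B cells (log2 difference 1.09 ± 0.04, adjusted p = 1.88e-78 by edgeR). Iglc2 (0.44), Iglc3 (0.23), and the kappa gene Igkc (0.12) were also called, the last not under TMM factors (0.05) or without library 4 (0.11). Kappa took 64.7% ± 3.23 of the light chain constant UMIs in Cd93+ and 71.9% ± 1.58 in Cd93- B cells, lower in 5 of 5 libraries (exact sign permutation p = 0.0625). A UMI of Iglc1 was seen in 79.3% of Cd93+ B cells, 47.4% of Cd93- B cells, and 1.74% of T cells before thinning. Iglc2 was seen in 92.0% of Cd93+ and 89.6% of Cd93- B cells, Iglc3 in 85.3% and 81.7%, and Igkc in 95.1% and 97.2%. Most B cells thus had UMIs of both kappa and lambda genes, and these values do not count cells by the light chain they use. The 3 lambda genes are near-identical in part of their sequence, and how the authors' counting split reads between them is not given in the sources used here.

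Of the surface markers that divide transitional stages, 7 were tested, 2 were higher (Cd24a and Ly6d) and 1 was lower (Cr2). Cr2, encoding complement receptor 2, was at 384, 353, 413, 334, and 433 CPM in Cd93+ and at 602, 582, 571, 489, and 640 in Cd93- B cells (log2 difference −0.59 ± 0.05, adjusted p = 7.37e-22 by edgeR), with no overlap. Fcer2a stood at 420.2 ± 33.5 against 443 ± 46.6 and was not called (−0.09, adjusted p = 0.325; TMM factors −0.16, called). Cd38 was at 278 ± 27.6 against 249 ± 12.6 (0.16, adjusted p = 0.0893 by edgeR) and was called among cells of 1500 to 4000 UMIs (0.28, adjusted p = 0.0284).

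Genes of mature follicular cells were called in both directions, in a split that depended on the scaling. Of 12 follicular genes 3 were higher, Klf2 (0.24), Tnfrsf13c (0.25), and Fcmr (0.18), and 3 lower, Cxcr5 (−0.39), Gpr183 (−0.59), and Cd55 (−0.23), with a median of −0.05. Under TMM factors 2 were higher and 6 lower, since Fcmr lost its call and Ighd, Fcer2a, and Icosl (−0.29) were called lower, and with DESeq2 1 was higher and 4 were lower. Without cells with UMIs of other cell types 1 was higher and 0 were lower. Of 12 marginal zone genes 0 were higher and 3 lower, Cr2, Dtx1 (−0.51), and Marcks (−0.28), with a median of −0.24, and under TMM factors 5 were lower. Fcmr was not called under TMM factors (0.11), with DESeq2, or without library 4 (0.15), and Marcks was not called without library 1, 3, or 5 and turned to 0.04 among cells of 1500 to 4000 UMIs. Of 7 genes of B-1 cells, 1 was higher, the transcription repressor Bhlhe41, at 24.6 ± 7.13 against 10.8 ± 1.38 CPM (1.20).

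B cell receptor signalling contributed 8 higher genes and 1 lower of 29 tested, with a median of 0.11. Among the higher were Ms4a1 (0.32), the kinase genes Syk (0.22) and Pik3cd (0.42), and the inhibitory genes Cd72, at 265 ± 21.9 against 177 ± 5.06 CPM (0.60), Siglecg (0.26), and Ptpn6, which encodes the phosphatase SHP-1 (0.26). Malt1, which links the receptor to NF-κB, was lower (−0.22). Syk was not called under TMM factors or without library 2, and in each of these settings 5 genes of the list were higher. With DESeq2 4 were higher, and neither Syk nor Pik3cd was called.

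Of 26 genes of BAFF receptors and survival 5 were higher and 3 lower, with a median of 0.04. The receptor genes Tnfrsf13c, encoding the BAFF receptor, and Tnfrsf13b, encoding TACI, were at 324 ± 67.8 against 274 ± 34.6 (0.25) and 282 ± 44.3 against 233 ± 25.1 CPM (0.28). Mcl1, which protects from apoptosis, was at 660.4 ± 65.7 against 519 ± 29.1 (0.35), and its opponent Bak1 was also higher (0.72), as was Trp53inp1 (0.54). The antiapoptotic genes Bcl2a1b (−0.52) and Bcl2a1d (−0.95), near-identical copies whose reads may be shared, and the proapoptotic Pmaip1 (−1.07) were lower. Bcl2a1b was not called without library 2, Bcl2a1d without library 2 or 3, and Pmaip1 without library 2, 3, 4, or 5, so that 0 genes of the list were lower without library 2 and 1 without library 3. With DESeq2 neither BAFF receptor gene was called (0.19 and 0.22), and 2 genes of the list were higher and 1 was lower.

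Of 18 homing receptors and integrins, 1 was higher and 5 were lower, with a median of −0.05. Ccr6, a chemokine receptor, was at 36.5 ± 11.7 against 63.1 ± 2.97 CPM (−0.80), Gpr183, a receptor for oxysterols that guides B cells in the follicle, at 93.7 ± 21.7 against 138 ± 18.01 (−0.59), and Cxcr5, the receptor for entry into follicles, at 88.8 ± 14.6 against 118 ± 7.48 (−0.39). Each of these was lower in 5 of 5 libraries, but without cells with UMIs of other cell types Gpr183 (−0.29, adjusted p = 0.376 by edgeR) and Cxcr5 (−0.51, adjusted p = 0.0644) were not called. Itgb7 (−0.42) and P2ry10 (−0.34) were lower, and S1pr4 was higher (0.41). Itgb7 was not called when library 2, 3, 4, or 5 was left out, nor P2ry10 without library 1, 2, 3, or 5, and 3 genes of the list were lower without library 2 or without library 3. With DESeq2 0 were higher and 3 lower, and S1pr4 was not called. Ccr7 was at 109 ± 9.07 against 111 ± 9.28 (−0.02, adjusted p = 0.953 by edgeR).

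Genes of MHC class II, which present antigen to T cells, were lower. Of 10 genes of the list 0 were higher and 6 lower, with a median log2 difference of −0.24, and under TMM factors 8 were lower. H2-Aa was at 2434, 2317, 2725, 2260.5, and 2419 CPM in Cd93+ B cells and 3064, 2956, 3219.6, 3082, and 3029 in Cd93- B cells, without overlap (−0.34 ± 0.03, adjusted p = 4.46e-18 by edgeR). H2-Ab1 (−0.32), H2-Eb1 (−0.36), H2-DMa (−0.36), and the invariant chain gene Cd74 (−0.15) were lower in 5 of 5 libraries each. Ly6a, encoding Sca-1, was at 198 ± 69.3 against 348 ± 72.2 (−0.81) and lower in 5 of 5 libraries.

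Immediate early and activation genes did not move in 1 direction: 4 of 20 were higher, Egr1 (0.80), Dusp2 (0.26), Btg1 (0.19), and Btg2 (0.19), and 3 lower, Jun (−0.19), Cd69 (−0.26), and Cd86 (−0.43), with a median of −0.07. Egr1 was higher in 4 of 5 libraries, and with at least 2 Cd93 UMIs it was not called (0.06, adjusted p = 0.993 by edgeR). Btg2 was not called under TMM factors (0.11) or with DESeq2 (0.13). Under TMM factors 3 of the list were higher and 5 lower, and with DESeq2 2 were higher and 2 lower. The calls of Btg2 (without library 3, 4, or 5), Jun (3 or 4), and Cd86 (1, 2, or 4) were lost when 1 of these libraries was left out, and without library 4 only 1 gene of the list was lower. Of 13 genes of innate sensing 1 was lower, Ly86 (−0.20), not called without library 4. Of 12 genes of the interferon response, edgeR and DESeq2 called 0, and 3 had an unadjusted p under 0.05 in edgeR.

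Cell cycle genes formed the list with the highest share of calls, 15 of 18 higher and 0 lower, with a median of 1.66. Mki67, a marker of dividing cells, was at 34.9, 130.3, 113.5, 138.9, and 109.4 CPM in Cd93+ B cells and 15.6 ± 3.995 in Cd93- B cells (2.87 ± 0.13, adjusted p = 3.95e-55 by edgeR). Few cells carried these genes. A cell was counted as cycling with a UMI of at least 2 of 8 cell cycle genes, which held for 20 Cd93+ and 165 Cd93- B cells, or 2.81% ± 1.37 and 0.600% ± 0.135 (higher in 5 of 5 libraries, exact sign permutation p = 0.0625), and for 1.71% ± 0.704 and 0.285% ± 0.104 after thinning to 1000 UMIs. Of the Mki67 UMIs of Cd93+ B cells, 95.2% came from these 20 cells, as did 94.2% of Cenpf and 86.4% of Nusap1. Mki67 is among the 8 genes that define these cells, so its part follows partly from the definition, whereas Cenpf and Nusap1 are not among them.

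These 20 cells had a median of 8633 UMIs, 19 of them had over 4000, and 9 of them had a Fcer2a UMI. Without cycling cells the median of the list was −0.05, a fall that follows from defining these cells by UMIs of cell cycle genes and tests nothing. In cells of 1500 to 4000 UMIs 1 of 10 was called, as lower, with a median of −0.22, and without cells above the 95th percentile of UMIs 2 of 12 were, both lower, with a median of 0.16. Droplets with more than 1 cell were not identified, and their part in these values was not tested.

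Beyond the lists, 10 genes at either end of the log2 scale were taken from those called in the same direction in 5 of 5 libraries with at least 20 CPM in either group. Higher were Cenpf, Mki67, Wfdc21, Top2a, Nusap1, Nrgn, Myb, Prc1, Pclaf, and Akap12. Cycling cells held 1.64% of the UMIs of Wfdc21 in Cd93+ B cells, 7.5% of Nrgn, 8.72% of Akap12, and 10.6% of Myb, against 79.5% to 98.3% of the other 6 genes. Of these 6, Mki67, Top2a, and Pclaf are used to define cycling cells. Wfdc21, a small secreted protein with a whey acidic protein domain, was at 32.0, 67.4, 16.2, 61.6, and 29.4 CPM against 7.05, 14.9, 5.52, 8.16, and 4.21 (log2 difference 2.39 ± 0.20, adjusted p = 1.74e-24 by edgeR) and was seen in 65 Cd93+ B cells (9.02%, against 1.52% of Cd93- B cells). Akap12, a scaffold for protein kinase A, was at 69.8, 114, 97.3, 117, and 130.4 against 25.5 to 37.0 (1.69 ± 0.11, adjusted p = 6.98e-35) and was seen in 165 of the cells (22.9%, against 7.57%). Nrgn, encoding a calmodulin-binding protein, was at 29.9 ± 14.5 against 7.13 ± 1.21 (2.04). The groups did not overlap in Wfdc21 or Akap12.

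Lower were Hba-a1, Il9r, Rflnb, Fxyd5, Hspa1b, Atxn1, Gm8251, Traf1, Dnajb2, and Herc3. Fxyd5, a regulator of the sodium pump, was at 33.7 ± 3.20 against 80.0 ± 4.47 CPM (−1.23 ± 0.13, adjusted p = 3.98e-15 by edgeR). Il9r, the receptor for interleukin 9, was at 8.09 ± 5.85 against 23.9 ± 9.96 (−1.60), and Traf1, an adaptor of TNF receptors, at 21.7 ± 9.51 against 44.2 ± 6.21 (−1.004). Among cells of 1500 to 4000 UMIs the 2 were at −4.49 and −2.39. Hspa1b was not called without library 2 (−0.80), and 5 UMIs of Hba-a1 in all Cd93+ B cells stood against 12288 in Cd93- B cells, where it was at 534 and 182 CPM in libraries 1 and 3 and at 1.39, 5.52, and 13.9 in libraries 2, 4, and 5. Without the library block the call of Hba-a1 was lost (adjusted p = 0.174 by edgeR). A Hba-a1 UMI was seen in 0.693% of Cd93+ and 1.35% of Cd93- B cells, in the latter 368 cells.

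No list of markers of other cells held a gene called higher in Cd93+ than in Cd93- B cells. Of 5 erythroid and platelet genes tested 4 were lower, all of them globins. Hbb-bs was at 15.04 ± 20.8 CPM in Cd93+ and at 523 ± 830.4 in Cd93- B cells, where library 1 had 1936 and library 3 had 614, and its call was lost without the library block (adjusted p = 0.0547 by edgeR). The share of cells with a Hbb-bs UMI differed little, 3.74% of Cd93+ and 4.28% of Cd93- B cells. The 27 such Cd93+ B cells held 32 UMIs and the 1166 such Cd93- B cells 43514. Of 12 myeloid markers 4 were lower and 0 higher, Fcer1g, S100a8, S100a9, and C1qb, and the list's summed level was 283 to 381 CPM in Cd93+ and 289.5 to 515 in Cd93- B cells, with Cd14 at 0. With DESeq2 0 of the myeloid markers and 2 of the globins were called. Of the 4 myeloid genes, Fcer1g was not called without library 1, 4, or 5, nor C1qb without library 1 or 3, and 2 genes of the list were lower without library 1. Of 9 T cell markers edgeR and DESeq2 called 0, none with an unadjusted p under 0.05 in edgeR (summed level 37.9 to 64.9 against 35.4 to 57.2 CPM). Of 6 NK cell markers 1 was lower, Gzma, and 3 without library 3 (summed level 2.91 to 169 against 30.9 to 84.9), and of 2 endothelial and stem cell markers 1, Ly6a. Gzma was at 16.0 ± 31.4 against 36.3 ± 12.4 CPM and lower in 4 of 5 libraries. By cells it was not rarer, with a UMI in 1.39% of Cd93+ and 0.896% of Cd93- B cells, and 1 Cd93+ B cell held 28 of the 44 UMIs. Of 6 plasma cell markers (408 to 482 against 414 to 525) and 4 plasmacytoid and dendritic markers (47.2 to 102 against 52.3 to 67.8) both tools called 0, with 1 and 0 at an unadjusted p under 0.05. What part such RNA had in the other differences was not tested, but with all cells left out that had a UMI of 10 myeloid, T cell, NK cell, or dendritic genes, which left 37 to 81 Cd93+ B cells per library, 297 genes of 9641 passed, 190 higher and 107 lower. Of 91 genes followed through the settings, 36 lost their call there, none with a change of sign, among them both BAFF receptor genes, Bhlhe41, Pik3cd, Cd74, and H2-DMa. Over all alternatives the log2 difference of Bhlhe41 was 0.98 to 1.28 and that of Pik3cd 0.12 to 0.62. Without cells with UMIs of other cell types the lists had fewer calls, with 7 of 23 transcription factors, 2 of 29 receptor signalling genes, and 4 of 8 immunoglobulin constant genes higher, and 3 of 10 MHC class II genes lower. With at least 2 Cd93 UMIs, 52 of 98 genes lost their call and 5 more changed sign, and 2 transcription factors and 3 immunoglobulin constant genes were higher and 4 MHC class II genes lower. With DESeq2 27 of 100 lost it.

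The 721 cells were split by Fcer2a, which encodes CD23, into 300 without a UMI and 421 with at least 1 (58.4%). Cells without Fcer2a had fewer UMIs, a median of 2653 ± 256 against 3290.4 ± 625.1 (lower in 5 of 5 libraries), and what part of them lacked the UMI for depth alone was not tested. Of 3773 genes tested between these 2 groups, 141 (3.74%) were called, 73 higher (1.93%) and 68 lower (1.8%) in the cells without Fcer2a.

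Vpreb3 and Cd24a were higher in Fcer2a- than in Fcer2a+ Cd93+ B cells. Vpreb3 was at 645, 841, 586, 740.3, and 789.98 CPM in Fcer2a- cells of libraries 1 to 5 and at 412, 435, 314, 348, and 383 in Fcer2a+ cells (log2 difference 0.95 ± 0.09, adjusted p = 3.96e-10 by edgeR). Cd24a was at 549, 763, 596, 668, and 555 against 298, 419.98, 348, 319, and 376 (0.84 ± 0.10, adjusted p = 3.13e-08). Neither gene overlapped between the groups. Of 4 transitional surface markers tested, 2 were higher, Cd24a and Ly6d, and 1 was lower, Cr2, while Cd38 was not called (0.14, adjusted p = 0.702). The early factors Myb (0.58, adjusted p = 0.385 by edgeR) and Sox4 (0.42, adjusted p = 0.497) were not called either. Ly6d (0.42), Ms4a1 (0.36), Cd72 (0.48), Zeb2 (0.68), and Mzb1, a chaperone of IgM (0.57), were also higher. Of the 15 Rag1 UMIs in Cd93+ B cells, few were in Fcer2a+ cells: the level was 14.2 ± 8.19 CPM in Fcer2a- and 0.446 ± 0.997 in Fcer2a+ cells, too low for the test.

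Immunoglobulin genes divided the same cells. Of 6 constant genes 4 were higher, Ighm, Igkc (not without library 5), Iglc1, and Iglc2, and 1 was lower, Ighd. Ighm was at 4917 ± 721 against 3759.9 ± 502 CPM (0.38), Ighd at 634 ± 79.4 against 1038 ± 131 (−0.71), and Iglc1 at 2367 ± 435 against 1373 ± 336 (0.79). The ratio of Ighm to Ighd UMIs was 7.68, 8.32, 6.22, 8.35, and 8.36 in Fcer2a- and 3.33, 3.79, 3.91, 3.19, and 3.94 in Fcer2a+ cells. The ratios did not overlap (exact sign permutation p = 0.0625, the smallest possible). Kappa took 61.7% ± 5.70 against 66.9% ± 2.05 of light chain UMIs, lower in 4 of 5 libraries (p = 0.125 by the exact sign permutation test).

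Genes of mature follicular cells were lower in Fcer2a- cells: 5 of 11 were lower and 0 higher, with a median log2 difference of −0.52 against 0.03 over all genes tested. Besides Ighd these were Zfp318, whose protein is needed for the IgD transcript, at 271 ± 32.9 against 390.5 ± 53.6 CPM (−0.52), Gpr183 (−1.14), Icosl (−0.90), and Cd55 (−0.41). Of 10 MHC class II genes 7 were lower and 0 higher (median −0.44). H2-Aa was at 1927, 1811, 2269, 1477, and 1873 against 2726, 2661, 2985, 2697, and 2785 CPM, without overlap (−0.58 ± 0.05, adjusted p = 1.51e-10 by edgeR). Cr2 was lower in 4 of 5 libraries (277 ± 94.8 against 451 ± 73.5, −0.71), with library 3 going the other way (442 against 396). The calls of Zfp318, Gpr183, Icosl, Cd55, and Cd74 were lost among cells of 1500 to 4000 UMIs, where the test had 1819 genes, and the calls of Vpreb3, Cd24a, Ighm, Ighd, Iglc1, and H2-Aa were kept there. Without cells with UMIs of other cell types 10 of 28 genes followed in this split lost their call. Among them were Zfp318 (−0.62), Gpr183 (−0.63), Icosl (−0.58), Cd55 (−0.40), Zeb2 (0.51), Mzb1 (0.18), Iglc2 (0.21), and Igkc (0.04), so that 1 follicular and 4 MHC class II genes were lower. With DESeq2, which set no adjusted p for Gpr183 and Icosl, 7 of 24 lost it, among them Cd55 (−0.46), Cr2 (−0.76), Cd72 (0.47), Spib (0.34), and Igkc (0.14), and 2 follicular and 5 MHC class II genes were lower. In both settings the calls of Vpreb3, Cd24a, Ly6d, Ighm, Ighd, Iglc1, and H2-Aa were kept. Zfp318 was also not called without library 5, Icosl without library 4, and Cd55 without library 1, 4, or 5, and 3 follicular genes were lower without library 4 or without library 5.

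Of 10 cell cycle genes 6 were higher, with a median of 1.09, and 3 were called without library 2 or without library 4. DESeq2 set an adjusted p for 3 of them and called 1. Other lists held few calls: 2 of 22 transcription factors were higher (Spib and Zeb2), 2 of 27 receptor signalling genes (Cd72 and Ms4a1), and 1 of 13 survival genes (Pim1). Of 14 homing genes 1 was lower (Gpr183), and of 15 activation genes 1 (Cd83). Of these calls, Cd72 was lost without library 2 or 3, Cd83 without 2, 3, or 4, Spib without 2, 3, 4, or 5, and Pim1 without 1, 3, 4, or 5. The largest differences by the rule above were Wfdc21 (2.07), Mctp2 (1.44), Akap12 (1.36), Pafah1b3 (1.29), and Lmnb1, a nuclear lamin (1.12), and on the lower side Stat4, a transcription factor activated by cytokines (−2.03), Bmyc (−1.26), Snrnp25 (−1.17), Gpr183, and Slamf1 (−1.10). Stat4 was at 31.9, 7.41, 24.8, 4.001, and 10.46 CPM in Fcer2a- and at 59.6, 55.3, 56.6, 69.1, and 42.2 in Fcer2a+ cells. Mctp2, Stat4, and Slamf1 reached the filter level of 38.5 CPM in 1 of the 2 groups only, so their differences are a description without a test. DESeq2 set no adjusted p for these 10 genes. Wfdc21 reached the filter level in Fcer2a+ cells only in library 2 (40.2 CPM), and Snrnp25 reached it in Fcer2a- cells only in library 1 (39.8 CPM). The filter thus kept both largely by their level in the other group. Snrnp25 was not called without library 3, and Slamf1 not without library 3 or 5.

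Cd93+ B cells were also set beside the 2 mature types to which they give rise. Follicular-type cells were the 16107 Cd93- B cells with a Fcer2a UMI and no Cd9 UMI, and marginal zone-type cells the 811 with UMIs of both Cr2 and Cd9 and none of Fcer2a. The same Cd93+ B cells enter all these comparisons, so they are not independent of each other, and the genes of each rule were left out of its test.

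**Figure D4:**
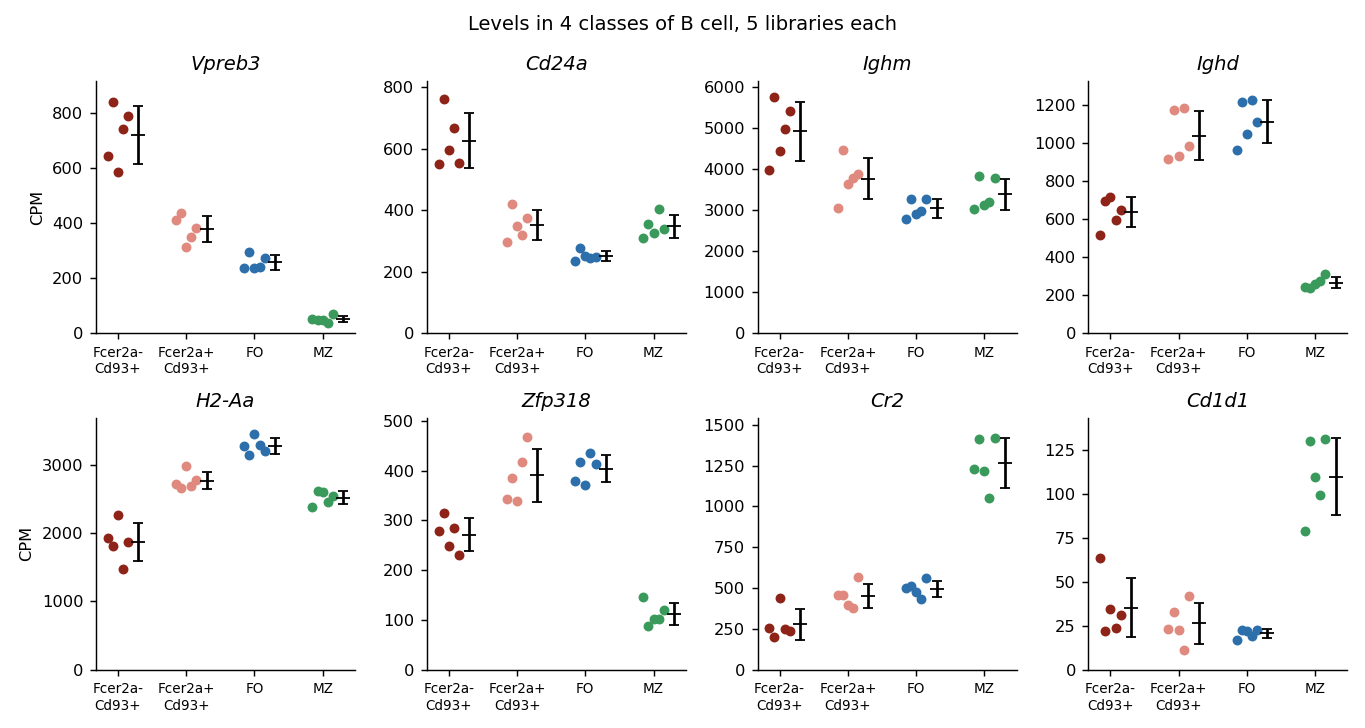
Levels of 8 genes in CPM (axes from 0) in Fcer2a- Cd93+, Fcer2a+ Cd93+, follicular-type (FO), and marginal zone-type (MZ) B cells. Points are the 5 libraries, and the mean with its SD stands beside them; Vpreb3 falls from 720.4 to 378 and 256 over the first 3 groups and is at 50.4 in marginal zone-type cells, and Cr2 is a rule gene of the last group.

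The level of several genes had an order over these groups. Vpreb3 was at 720.4 ± 104 CPM in Fcer2a- Cd93+, 378 ± 48.7 in Fcer2a+ Cd93+, 256 ± 26.7 in follicular-type, and 50.4 ± 11.3 in marginal zone-type cells, with no overlap between neighbours. Cd24a was at 626 ± 90.02, 352 ± 48.1, and 250.1 ± 16.1 in the first 3 groups and at 347 ± 36.2 in marginal zone-type cells, which overlapped with the Fcer2a+ Cd93+ cells. H2-Aa went the other way, at 1871 ± 283, 2771 ± 128, and 3274 ± 113, with 2520.2 ± 99.1 in marginal zone-type cells. Ccr6 was at 12.3 ± 5.43, 51.2 ± 16.1, and 71.5 ± 3.14 in the first 3 groups. Ccr6 was too low for the test between Fcer2a- and Fcer2a+ Cd93+ B cells. The step from Fcer2a+ Cd93+ to follicular-type cells was not tested for any of these genes.

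Against follicular-type cells, 937 of 9967 genes were called (9.4%), 673 higher (6.75%) and 264 lower (2.65%) in Cd93+ B cells, and with TMM factors 454 were higher and 411 lower. Transcription factors had 12 of 23 higher and 0 lower, among them Zeb2 (1.13), Myb (2.39), Sox4 (1.37), and Bach2 (0.32). The count was 6 without library 4 and 9 to 11 without each of the others, with 1 lower without library 2, and it was 8 higher and 1 lower under TMM factors and 6 higher with DESeq2 or without cells with UMIs of other cell types. Vpreb3 (0.98), Cd24a (0.87), Iglc1 (1.25), Ighm (0.47), and Ly6d (0.27) were higher in 5 of 5 libraries each. Of 11 follicular genes 6 were lower and 1 higher, with Ighd at 885 ± 89.3 against 1111 ± 112 CPM (−0.33), Zfp318 at 345 ± 30.0 against 403 ± 27.0 (−0.23), Icosl (−0.41), Cd55 (−0.45), Cxcr5 (−0.41), and Gpr183 (−0.74). Follicular-type cells were chosen by Fcer2a, a gene of this list, which 300 of the 721 Cd93+ B cells lacked. What part of these differences follows from that choice was not tested. Against all Cd93- B cells, with library totals, Ighd (−0.09), Zfp318 (0.005), and Icosl (−0.22) were not called, while Cd55, Cxcr5, and Gpr183 were called lower. Without cells with UMIs of other cell types Gpr183 (−0.44, adjusted p = 0.0626 by edgeR), Icosl (−0.42), and Zfp318 (−0.29) were not called, the last 2 with differences no smaller than before. In that setting 4 MHC class II genes were lower. Zfp318 was also not called among cells of 1500 to 4000 UMIs (−0.09) or without cells of high UMIs (−0.16). The higher gene, Klf2 (0.13), was not called under TMM factors, with DESeq2, or without library 1, 2, or 5. Of 10 MHC class II genes 9 were lower (median −0.33 against 0.06 over all genes tested). Bhlhe41 was at 24.6 ± 7.13 against 6.35 ± 0.759 (1.98). Of 7 myeloid markers 1 was higher, Ms4a6c (0 or 1 of the list with 1 library left out), and the plasma cell marker Mzb1 was also higher (0.27).

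The ratio of Ighm to Ighd UMIs in follicular-type cells was 2.75 ± 0.206, below that of Cd93+ B cells in 5 of 5 libraries, and kappa took 73.3% ± 1.56 of light chain UMIs (exact sign permutation p = 0.0625 for both). Cycling cells made up 0.300% ± 0.0843 of follicular-type cells. By the rule for the largest differences the genes were Cenpf, Mki67, Wfdc21, Nusap1, and Pclaf, higher, and Hba-a1, Hbb-bs, Rflnb, Fxyd5, and Gm8251, lower. Wfdc21 was at 41.3 ± 22.1 against 5.15 ± 1.60 CPM (3.02).

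Against marginal zone-type cells more genes differed, 2064 of 6568 (31.4%), 1469 higher (22.4%) and 595 lower (9.06%). Depth and scale differed too. Marginal zone-type cells, whose rule asks for 2 further UMIs, had a median of 4576 ± 612 UMIs, and ribosomal protein genes took 33.2% ± 0.952 of their UMIs against 27.0% ± 1.62 in Cd93+ B cells. The median log2 difference of all genes was 0.16, against −0.01 with TMM factors, which called 777 higher and 932 lower. Differences below are given with library totals and were kept in direction by TMM factors.

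Against that median of 0.16, Vpreb3 was higher by 3.31 (509 ± 69.6 against 50.4 ± 11.3 CPM), Sox4 by 3.38, Bach2 by 2.76, Myb by 3.16, and Akap12 by 3.74, each on the log2 scale with library totals. Myb, Sox4, and Akap12 reached the filter level of 14.6 CPM in 0 libraries of marginal zone-type cells and could be kept only by being high in Cd93+ B cells, so their differences are a description without a test. Sox4, with 21 UMIs in all marginal zone-type cells, was higher by 4.03 without library 5, by 4.63 without cells of high UMIs, and by 5.02 among cells of 1500 to 4000 UMIs, where Akap12 was also higher by 5.02. Follicular genes had 9 of 11 higher and 1 lower (median 1.30). Klf2, which keeps B cells out of the marginal zone, was at 899 ± 104 against 223 ± 23.6 (2.01), Cd55 at 341 ± 70.2 against 98.5 ± 14.3 (1.78), Ighd at 885 ± 89.3 against 264 ± 30.4 (1.74), Zfp318 at 345 ± 30.0 against 111 ± 22.1 (1.64), and Ccr7 at 109 ± 9.07 against 44.6 ± 13.5 (1.30). None of these overlapped.

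Marginal zone genes were lower, 7 of 8 with 0 higher and a median of −1.69, leaving out Hes5 and Asb2, which reached the filter level in marginal zone-type cells only. Marginal zone-type cells were chosen by Cr2 and Cd9, both of this list, and by a lack of Fcer2a, a gene of the follicular list. What part of the differences in the 2 lists follows from that choice was not tested. Against all Cd93- B cells Cd1d1 was not called (−0.19, adjusted p = 0.619 by edgeR), and Dtx1 was lower (−0.51). Cd1d1, which presents lipids, was at 37.8, 28.5, 27.0, 15.7, and 37.9 CPM in Cd93+ B cells and 78.9, 130.1, 109.4, 99.7, and 131 in marginal zone-type cells (−1.98 ± 0.17, adjusted p = 2.73e-22 by edgeR). S1pr3, a sphingosine phosphate receptor, was at 12.9 ± 9.43 against 97.4 ± 19.6 (−2.89), Dtx1, a target of Notch2, at 90.1 ± 9.90 against 382 ± 30.4 (−2.08), and Mzb1 at 385 ± 31.2 against 805 ± 56.6 (−1.06). The remaining gene, Notch2 itself, was at 57.5 ± 12.4 against 61.5 ± 8.89 (−0.09, adjusted p = 0.71 by edgeR), but it was called lower without cells with UMIs of other cell types (−0.70, adjusted p = 0.0438). In the same setting S1pr3 was at −3.77, and among cells of 1500 to 4000 UMIs Dtx1 was at −3.03. Innate sensing had 4 of 8 lower and 0 higher, with Tlr7 (−1.34) and Cd180 (−0.63), and Ly6a was at 198 ± 69.3 against 673 ± 52.0 (−1.79). The means of S1pr3 (12.9 CPM) and Tlr7 (12.2 CPM) in Cd93+ B cells lay below the filter level of 14.6 CPM. The filter thus kept both largely by their level in marginal zone-type cells, and both are in the counts of their lists.

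Other genes separated the types less or in another order. Of 3 transitional surface markers tested 1 was higher and 1 lower. Cd24a was higher by 0.39 in Cd93+ than in marginal zone-type cells and was not called with DESeq2 (0.23). Cd38 was lower in 5 of 5 libraries, at 278 ± 27.6 against 362 ± 30.6 CPM (−0.38, adjusted p = 3.23e-05 by edgeR). H2-Aa did not pass (−0.05, adjusted p = 0.414 by edgeR), but it was called lower under TMM factors (−0.22), with DESeq2 (−0.21), among cells of 1500 to 4000 UMIs (−0.28), and without cells of high UMIs (−0.15). Transcription factors other than Myb and Sox4 had 15 of 20 higher and 3 lower, the last including Irf4 (−0.72), which was not called without cells with UMIs of other cell types (−0.49). With DESeq2 10 of all 22 tested were higher and 3 lower. Markers of other cells differed too. Of 4 myeloid markers 2 were lower, Fcer1g and Tyrobp (summed level of the list 283 to 381 against 199 to 653.5 CPM). Gzma (−2.44), Hbb-bt, Xbp1, and Mzb1 were also lower, and Bst2 was higher. What part such RNA had in this comparison was not tested. All 6 immunoglobulin constant genes tested were higher, Ighm (0.31) not under TMM factors (0.14). The kappa share of Cd93+ B cells was not lower than that of marginal zone-type cells in every library. The difference was −0.608, −6.84, 1.59, 0.0189, and 0.800 percentage points in libraries 1 to 5. The Ighm to Ighd ratio was 12.9 ± 1.92 in marginal zone-type cells, above Cd93+ B cells in 5 of 5 libraries (exact sign permutation p = 0.0625), and cycling cells made up 2.83% ± 2.15 (p = 0.938 by the same exact test). That share was taken without thinning, and marginal zone-type cells had more UMIs per cell. Of 13 cell cycle genes 9 were higher in Cd93+ B cells and 0 lower, against 22.4% higher over all genes tested. With 1 library left out 4 to 11 were higher. The largest differences by the rule were Wfdc21 (122 UMIs against 2 in all marginal zone-type cells), Akap12, Dnah8 (3.45), Sox4, and Vpreb3 on the higher side and Nrp2 (2 UMIs against 171), Lair1 (−4.14), I830077J02Rik (−4.06), Ms4a7 (−4.04), and Tspan15 (−3.81) on the lower, the last 4 with 4 to 13 UMIs in Cd93+ B cells. Tspan15 was at −4.60 without library 1. Except for Vpreb3, these genes reached the filter level in 1 of the 2 groups only, and their differences are a description without a test.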

How the data were processed

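Droplet-based RNA-seq (Chromium 3′ kit) was performed on CD45+ cells of naive spleen. Per the labels, reads were mapped to mm10 with Cell Ranger (version not given in the sources used here), and the authors deposited raw UMI counts of 17644 genes in filtered cells. The limits of their filters and any removal of doublets are not given in the sources used here, and no doublet caller was run. The members and the gene lists were chosen with earlier results of these data known.

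UMIs were summed per library tag and cell group, scaled by plain library totals, and tested with edgeR 4.0.16 (R 4.3.3; filterByExpr, quasi-likelihood test, library as a block, Benjamini-Hochberg, threshold 0.05). Both cell groups of a comparison come from the same 5 libraries, which pairs them. The genes of the rules were left out of the tests. Genes named in the text that reached the filter level in all libraries of 1 cell group and in 0 of the other are given without a test. DESeq2 1.42.0, TMM factors, and the other settings listed in the closing section were alternatives. Fits were tested on simulated data. Single values were compared by exact sign permutation over libraries (scipy 1.17.1, two-sided). Shares used cells thinned to 1000 UMIs (seed 1; 2 Cd93+ and 114 Cd93- B cells below that were left out) and Clopper-Pearson 95% intervals, and intervals and floors of 3 counts cover counting error only. Summed levels add up over cells, so cells with many UMIs weigh more. Named beyond the lists were the 10 largest and 10 smallest differences (5 and 5 outside the first comparison) among genes called, in the same direction in 5 of 5 libraries, with at least 20 CPM in either group, without mitochondrial, ribosomal protein, immunoglobulin variable, and T cell receptor genes. Genes singled out in the text for a list with few calls were named after their values were seen. Reads of near-identical genes (lambda constant genes, Bcl2a1 genes, globins, heat shock genes) cannot be told apart with certainty.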

Additional observations from a re-analysis of the deposited data

Results flagged for a closer look

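In groups of 5 libraries, a value was listed where its gap to the nearest of the others was over 0.71 of the whole range. Of 93 series checked 5 were listed, and chance lists about 1 in 20. Library 2 had a kappa share in Cd93+ B cells 6.84 percentage points below that of marginal zone-type cells (difference −6.84, against −0.608, 1.59, 0.0189, and 0.800 in libraries 1, 3, 4, and 5). Library 2 also had the widest difference in the Ighm to Ighd ratio between the same groups, −11.2 (the others −7.95, −7.55, −7.24, and −6.82). Library 3 had the smallest difference in that ratio between Fcer2a- and Fcer2a+ Cd93+ B cells, 2.31 (the others 4.35, 4.53, 5.15, and 4.42). Library 1 had the lowest Mki67 level in Cd93+ B cells, 34.9 CPM against 109.4 to 138.9 in the others, and the highest Hspa1b level, also 34.9 CPM against 3.60 to 8.41.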

How the results depend on the processing

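Counts of called genes fell with DESeq2 and mostly fell with fewer cells, though within Cd93+ B cells they reached 144 without 1 library, above the main 141. Against Cd93- B cells (986 main calls) there were 297 without cells with UMIs of other cell types, 158 with at least 2 Cd93 UMIs, 553 in cells of 1500 to 4000 UMIs, 485 with DESeq2, 548 with no replicate block, and 658 to 896 without 1 library. Within Cd93+ B cells (141) they were 34 without cells with UMIs of other cell types, 92 at 1500 to 4000 UMIs, 47 with DESeq2, 94 with no replicate block, and 70 to 144 without 1 library, with 70 without library 2 and 89 without library 4. Against follicular-type cells (937) they were 320, 606, 497, and 603 in the same order, and 616 to 899 without 1 library (621 without library 2, 616 without library 4). Against marginal zone-type cells (2064) they were 830, 918, and 826 in the first 3 of these settings and 1632 to 1998 without 1 library. Directions reversed, none past the threshold, for Igkc (−0.10), Btg1 (−0.045), Dusp2 (−0.24), Ikzf3 (−0.029), and Ighg2b (−0.59) with at least 2 Cd93 UMIs, for Ighg2b without cells of high UMIs (−0.42), for Marcks (0.039), Stmn1 (−1.02), and Top2a (−0.29) at 1500 to 4000 UMIs, and for Stmn1 (−0.12), Top2a (−0.16), and Pclaf (−0.99) without cycling cells, which takes out the cells by their cell cycle UMIs and was added after seeing the data, as was leaving out shared barcodes. The share of Cd93+ B cells was 0.272% with at least 2 Cd93 UMIs and 0.992% after thinning. The cause was not tested. With 343853 to 698524 UMIs per library in Cd93+ B cells, genes of a few CPM were beyond the test. A p that missed the threshold does not show equal levels.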

Other observations

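Ribosomal protein genes, which belonged to no list, were lower in Cd93+ B cells. They took 29.4%, 25.7%, 27.6%, 26.7%, and 25.5% of UMIs in Cd93+ and 30.4%, 29.5%, 30.3%, 29.7%, and 29.1% in Cd93- B cells of libraries 1 to 5, lower in 5 of 5 (exact sign permutation p = 0.0625, the smallest possible). Of 92 such genes tested 55 were lower and 0 higher in edgeR. At 1000 UMIs per cell, Cd93+ B cells had a median of 593.5 ± 10.4 genes against 572 ± 3.83, higher in 5 of 5 libraries (p = 0.0625 by the same exact test). Mitochondrial genes took 4.97% ± 0.479 against 4.82% ± 0.422 of UMIs, and immunoglobulin genes 1.81% ± 0.141 against 1.49% ± 0.0546, both higher in 5 of 5 libraries.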
